A study of Mus musculus with 4 samples.

Results

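The DEAD and DEAH box helicases are a family of ATP-driven enzymes that bind, unwind or remodel RNA, and are named after a short motif of their helicase core. Their genes were taken here as the protein-coding genes whose symbols begin with Ddx or Dhx and a number, which gave 53 of the 54532 genes in the table. They were read by RNA sequencing in T helper 2 (Th2) cells of the mouse, the CD4+ T cell state that makes type 2 cytokines. Cells grown with HU-308, a synthetic agonist selective for cannabinoid receptor 2, gave 2 libraries, and cells grown with DMSO, its solvent, gave another 2. All 4 libraries share the other labels: wild-type genotype and a bleomycin model of systemic sclerosis, in which the drug leaves fibrosis in skin and lung. Starting from naive CD4+ cells, cultures were driven towards Th2, given CD3 and CD28 stimulation again on day 4, and harvested 12 h later. The HU-308 dose, the strain and the age of the mice are not given in the sources used here, and no library came from cells without the receptor. Whether the replicates are separate mice or cultures is not stated, so every p-value here reflects no more than the scatter of 4 libraries, and that scatter may be technical.

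A resting T cell that is activated enlarges its nucleolus and makes many more ribosomes, and a large share of this family works there, each member acting at its own step of ribosomal RNA folding or pre-ribosome maturation. Other members drive the successive rearrangements of the spliceosome, help messenger RNA leave the nucleus, open RNA for translation, hold it in storage granules, or recognise viral RNA. The symbols do not map exactly onto the enzymes. Ddx11 carries the name but encodes a DNA helicase of sister chromatid cohesion, while the DEAD box proteins Eif4a1, Eif4a2 and Eif4a3 do not carry it and are described with the partners.

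The HU-308 libraries held 16145298 and 16263077 counts and the DMSO libraries 18041457 and 20479254. The members took 0.764% and 0.730% of counts in the HU-308 libraries, against 0.860% and 0.836% in the DMSO libraries. The T cell markers Cd3e, Cd3g, Cd4 and Trac summed to 1131 and 1387 CPM with HU-308, against 968 and 1294 CPM with DMSO (CPM, counts scaled to a common library size with TMM factors), and the 4 Th2 markers to 399 and 315 CPM with HU-308, against 550 and 557 CPM with DMSO. All 4 Th2 markers were lower at an unadjusted p under 0.05. Gata3 carried most of these sums, and its HU-308 level was 70.2% of its DMSO level. Il4 lay at 38.0% of its DMSO level, Il13 at 7.76% and Il5 at 8.67%. For Il13 and Il5 the edgeR adjusted p was 0.0389 each, under the threshold of 0.05. The part of these markers in the results below was not tested. Markers of other cell types summed to far less than the T cell markers. The 3 B cell markers summed to 1.60 and 2.90 CPM with HU-308 and to 1.15 and 3.17 CPM with DMSO, and 3 NK cell markers to at most 0.0594 CPM. For 2 CD8 T cell markers the sums were 13.8 and 12.1 CPM with HU-308 and 12.5 and 13.7 CPM with DMSO. For 3 dendritic cell markers they were 7.90 and 10.4 CPM with HU-308 and 5.08 and 14.0 CPM with DMSO. The 5 myeloid markers summed to 30.5 and 63.1 CPM with HU-308 and 41.5 and 77.8 CPM with DMSO. In the myeloid list Adgre1 carried most of the level, while Lyz2 had 0 reads in every library. Mitochondrially encoded transcripts took 1.70% and 1.37% of counts with HU-308 and 2.25% and 1.75% with DMSO, and their part was not tested either. Transcripts in bulk RNA are shares of a pool, so fewer cells of a type and less RNA per cell cannot be told apart.

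Nearly the whole family was expressed. Of the 53 genes, 52 passed the low-count filter, and the germ cell helicase gene Ddx4 (Vasa) did not, with 1 and 6 reads in the HU-308 libraries against 3 and 2 in the DMSO libraries. Levels can be compared between genes only per length, and on the authors' FPKM scale (reads scaled to transcript length and library depth) Ddx5 stood highest. Ddx5, a coregulator of transcription and splicing, had 222 and 228 FPKM with HU-308, against 243 and 265 FPKM with DMSO. Its relative Ddx17 followed at 120 ± 8.96 FPKM with HU-308 and 122 ± 8.87 FPKM with DMSO (mean ± SD, n = 2 each). Next in mean level was Ddx3x, at 83.9 ± 5.30 FPKM with HU-308 and 137 ± 12.5 FPKM with DMSO. Ddx39b had 76.0 ± 1.77 FPKM with HU-308 and 74.9 ± 4.44 FPKM with DMSO. Then came Ddx21, at 42.4 ± 8.87 FPKM with HU-308 and 97.1 ± 6.45 FPKM with DMSO, and Ddx6, at 56.9 ± 0.434 FPKM with HU-308 and 72.2 ± 1.57 FPKM with DMSO. The order of these 6 genes was not the same in both groups. In the DMSO libraries Ddx21 (102 and 92.5 FPKM) stood above Ddx39b (78.1 and 71.8 FPKM), and in the HU-308 libraries it stood below both Ddx39b and Ddx6. At the other end, Ddx43, Ddx60 and Ddx25 averaged 0.530, 0.351 and 0.107 FPKM over the 4 libraries.

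**Figure D1:**
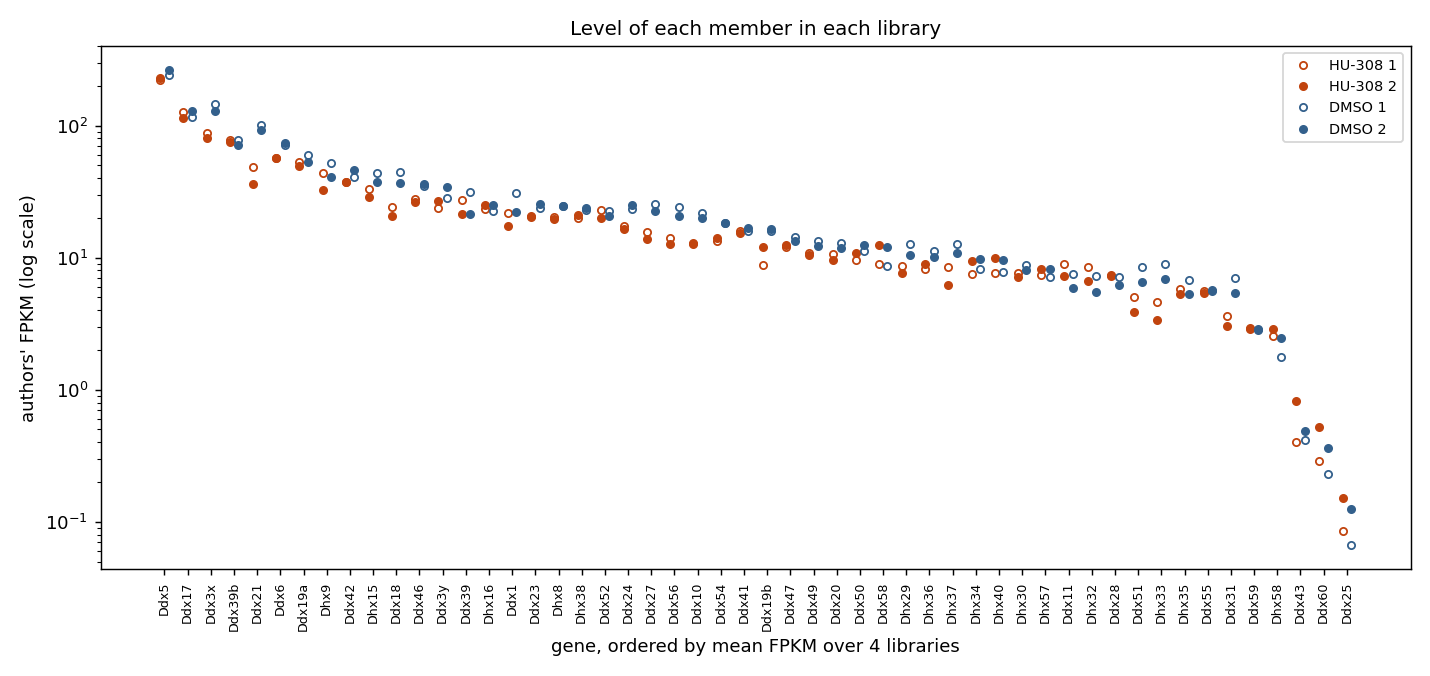
The authors' FPKM (log axis) of 52 members in each library, in order of mean FPKM, with HU-308 libraries in orange on the left of each gene and DMSO libraries in blue on the right (open, replicate 1; filled, replicate 2). Ddx5 lies at the top near 239 FPKM, and Ddx21 shows a clear gap between the groups, with 42.4 FPKM on average with HU-308 and 97.1 with DMSO.

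Most of the family stood lower with HU-308, and its nucleolar members stood lowest. The median log2 fold change of the 52 tested members (HU-308 over DMSO) was −0.20, beside 0.02 for all 14316 tested genes, and 39 members were lower and 13 higher with HU-308. With libraries scaled by size only, 32 were lower. No member passed an adjusted p of 0.05 in edgeR's quasi-likelihood test with Benjamini-Hochberg adjustment, a threshold that 0.314% of tested genes passed in either direction. At an unadjusted p under 0.05, 17 members were lower, where 9.97% of all tested genes were, and 0 members were higher, where 8.79% of all tested genes were. DESeq2, run as an alternative, called 8 members at an adjusted p under 0.05, all lower with HU-308, while it called 4.02% of the genes it gave an adjusted p as lower. In the authors' deposited table the same threshold held the same 8 lower members, and 2.07% of its genes were lower past it. Its log2 fold changes for the members nearly equal those of this DESeq2 run (Ddx21, −1.196 in both). Both come from the same counts, so the deposited table adds no separate support. Both HU-308 libraries lay below both DMSO libraries for 32 of the 52 members, against 25.4% of all tested genes. Both lay above for 2 members, Dhx58 and Ddx28, against 25.9% of all tested genes. With HU-308 replicate 1 left out the count of 17 became 10, and with HU-308 replicate 2 left out it became 9, where 6.78% and 5.72% of all tested genes were lower at that p, and these fits have fewer residual degrees of freedom.

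**Figure D2:**
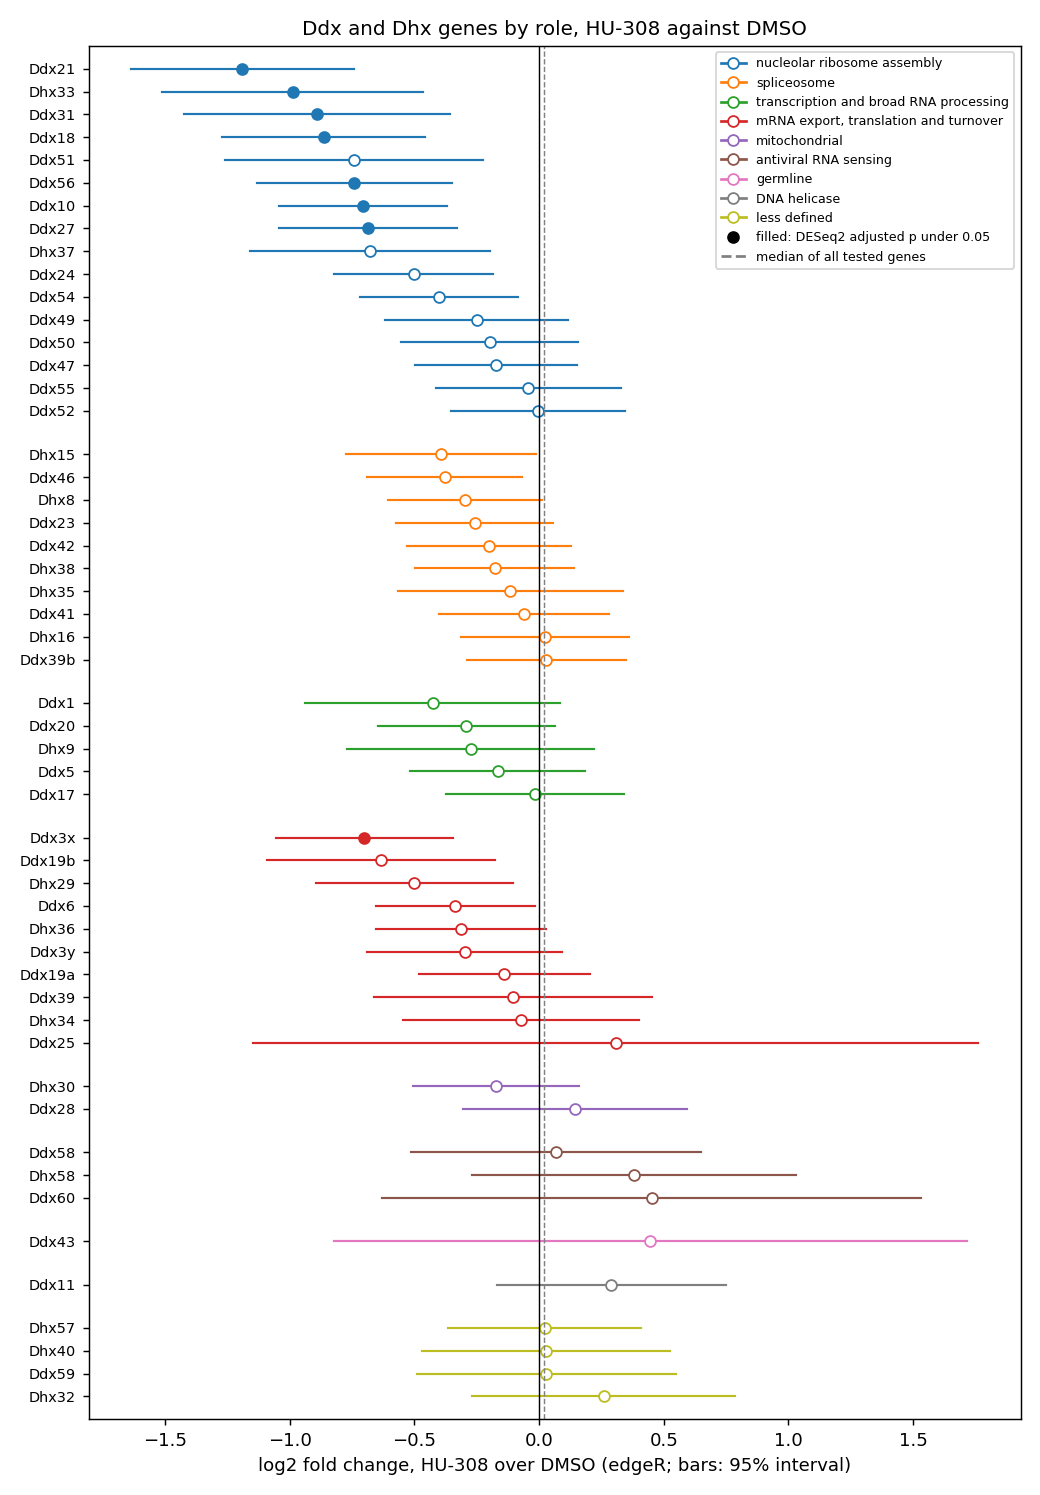
Log2 fold change of HU-308 over DMSO for 52 members, grouped by role, with 95% intervals from the edgeR fit as bars. Filled points mark the 8 members that DESeq2 called at an adjusted p under 0.05, of which 7 are nucleolar, and the dashed line marks the median of all tested genes at 0.02.

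The helicases of ribosome assembly in the nucleolus were all on the lower side. The role groups were drawn up with earlier results of these data known. Their shares are a description beside all tested genes and get no test. All 16 had a negative log2 fold change (14 with libraries scaled by size only, where Ddx52 and Ddx55 turned positive), with a median of −0.68 and a range from −1.19 to −0.0044. Of these, 11 were lower at an unadjusted p under 0.05 (68.8%, beside 9.97% of all genes), and 15 had both HU-308 libraries below both DMSO libraries (93.8%, beside 25.4%). Summed over the 16, the level was 1133 and 1031 CPM in the HU-308 libraries, against 1776 and 1645 CPM in the DMSO libraries. This was 15.5% and 14.7% of the CPM of the whole family with HU-308, against 19.8% and 18.8% with DMSO. The 36 tested members outside this group had a median of −0.13, and 6 of them (16.7%) were lower at an unadjusted p under 0.05. For 17 of the 36 (47.2%) both HU-308 libraries lay below both DMSO libraries, and for 2 above. All 16 nucleolar members stayed negative without HU-308 replicate 1 or DMSO replicate 2. Without HU-308 replicate 2 or DMSO replicate 1, 15 of the 16 did.

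Ddx21, which acts in ribosomal RNA processing and in transcription by RNA polymerase I and II, had the largest difference of the family. It was read at 253 and 190 CPM in the HU-308 libraries, against 529 and 481 CPM in the DMSO libraries. Every HU-308 value lay far below every DMSO value, and the mean with HU-308 was 43.8% of that with DMSO. Its log2 fold change was −1.19 ± 0.18 (SE), with an edgeR adjusted p of 0.0716 and a DESeq2 adjusted p of 1.3e-05. Without HU-308 replicate 1 or without DMSO replicate 2 Ddx21 passed the edgeR threshold (adjusted p = 0.0368 and 0.0262), but it did not once HU-308 replicate 2 or DMSO replicate 1 was left out (adjusted p = 0.175 and 0.0790).

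Dhx33, a DEAH box helicase of ribosomal DNA transcription, had 46.1 and 34.3 CPM with HU-308, against 89.9 and 69.6 CPM with DMSO. Its HU-308 level was 50.4% of its DMSO level (log2 fold change −0.99 ± 0.21, edgeR adjusted p = 0.112, DESeq2 adjusted p = 0.00418). Ddx31 was a rarer transcript, with 215 and 184 reads with HU-308 and 430 and 375 reads with DMSO. It reached 12.8 and 10.9 CPM with HU-308, against 24.8 and 19.1 CPM with DMSO. The groups did not overlap for either gene, although each group's libraries differed visibly from one another. The log2 fold change of Ddx31 was −0.89 ± 0.22, with an edgeR adjusted p of 0.132 and a DESeq2 adjusted p of 0.0448.

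Ddx18, the counterpart of yeast Has1, had 59.8 and 51.8 CPM with HU-308, against 112 and 91.4 CPM with DMSO (log2 fold change −0.86 ± 0.17). Its counts are less certain than the rest, because 51.4% of the 50-base stretches of its transcripts also occur in those of Gm16433, which was given 129 reads over the 4 libraries, while Ddx18 had at least 874 in each. Ddx10, the counterpart of yeast Dbp4, was tight between replicates, at 40.2 and 40.0 CPM with HU-308 against 68.3 and 62.5 CPM with DMSO. Ddx27 had 76.2 and 68.2 CPM with HU-308, against 123 and 109 CPM with DMSO. Ddx56 had 35.6 and 32.6 CPM with HU-308, against 62.0 and 52.1 CPM with DMSO. These 3 genes lay at 61.3%, 62.1% and 59.8% of their DMSO levels, and DESeq2 called each of them (adjusted p = 0.0345, 0.0335 and 0.0354), as it did Ddx18 (0.00622). In edgeR their adjusted p, with that of Ddx18, was between 0.0956 and 0.112.

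Ddx51 had 26.4 and 20.8 CPM with HU-308, against 44.5 and 34.5 CPM with DMSO, and Ddx24 had 143 and 139 CPM with HU-308, against 192 and 207 CPM with DMSO. Their log2 fold changes were −0.74 ± 0.21 and −0.50 ± 0.13, with edgeR adjusted p of 0.162 and 0.142, and DESeq2 did not call them (adjusted p = 0.0777 and 0.139). Dhx37 and Ddx54 completed the 11, at 62.5% and 75.7% of their DMSO levels. The remaining 5 nucleolar members, named to complete the group, were Ddx49, Ddx50, Ddx47, Ddx55 and Ddx52, with log2 fold changes of −0.25, −0.20, −0.17, −0.04 and −0.0044. Ddx52 had 76.4 and 68.1 CPM with HU-308, against 75.6 and 69.4 CPM with DMSO, the single nucleolar member whose groups overlapped. Its 95% interval ran from −0.35 to 0.34, which leaves room for a modest difference either way. Ddx49 shares 29.85% of its exon bases with Homer3 on the opposite strand, and the strand setting of the counts is not given in the sources used here.

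**Figure D3:**
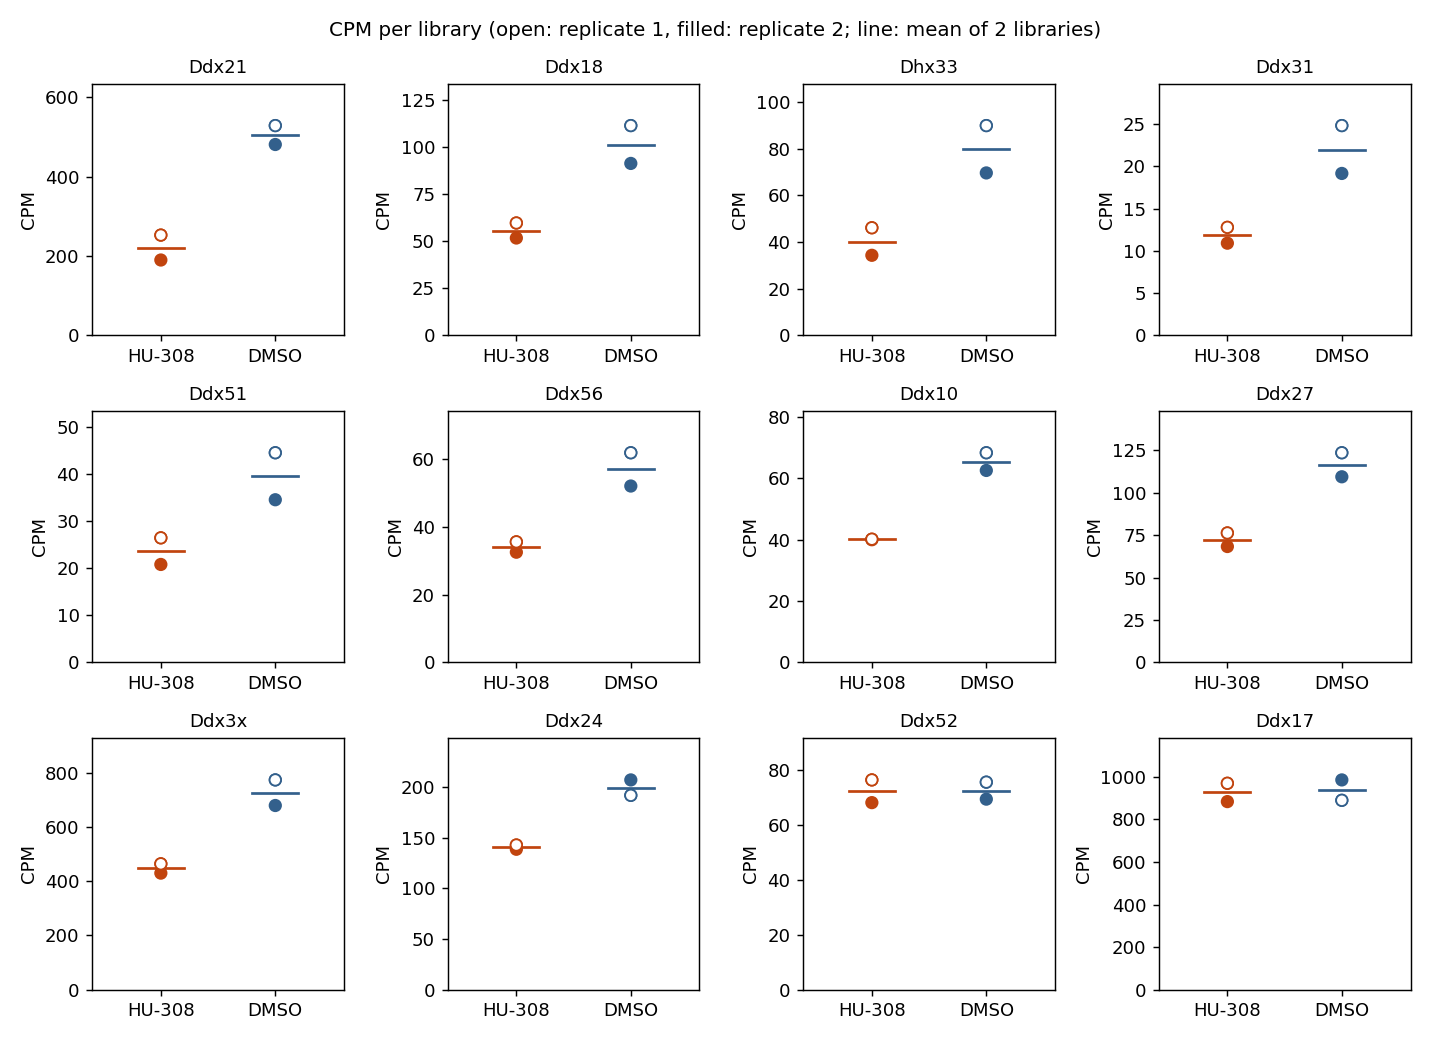
CPM (axes from 0) of 12 members in each library, with HU-308 left in orange and DMSO right in blue (open, replicate 1; filled, replicate 2; line, mean of the 2 libraries). The groups do not overlap in the first 10 panels, from Ddx21 to Ddx24, and they overlap in Ddx52 and Ddx17.

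Most nucleolar members have a yeast counterpart assigned to the large or the small ribosomal subunit. This division was made after the values were seen and gets no test. Of 7 counterparts of large-subunit helicases (Ddx24, Ddx27, Ddx31, Ddx51, Ddx54, Ddx55 and Ddx56), 6 were lower at an unadjusted p under 0.05 (beside 9.97% of all tested genes), with a median log2 fold change of −0.69. Of 5 counterparts of small-subunit helicases (Ddx10, Ddx47, Ddx49, Ddx52 and Dhx37), 2 were, Ddx10 and Dhx37, with a median of −0.25. The exception among the large-subunit counterparts was Ddx55, the counterpart of yeast Spb4, at 29.7 and 28.8 CPM with HU-308 against 30.0 and 30.3 CPM with DMSO.

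Ddx21 and Ddx50 are closely related nucleolar helicases that lie side by side on chromosome 10 of GRCm38, at 62580251 to 62602281 and 62615895 to 62651218 on the minus strand, with 13613 bases between them. Ddx50 had 97.4 and 111 CPM with HU-308, against 113 and 126 CPM with DMSO (log2 fold change −0.20 ± 0.14, edgeR adjusted p = 0.498). Within a library, Ddx21 FPKM was 5.07 and 3.34 times that of Ddx50 with HU-308, against 9.12 and 7.48 times with DMSO. All HU-308 ratios lay below all DMSO ratios, and the difference between the neighbours was not tested further. The 100 bases before each RefSeq start are shown for this pair, and for Dhx33 because it alone among the nucleolar members carries the E-box CACGTG, the site bound by MYC and MAX among other factors. They are from the RefSeq promoter table (GRCm38.p6, minus strand, written 5′ to 3′), with capitals for the E-box.
Ddx21, chr10:62602299-62602398: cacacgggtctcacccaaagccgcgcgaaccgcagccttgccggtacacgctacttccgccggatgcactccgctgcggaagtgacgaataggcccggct
Ddx50, chr10:62651219-62651318: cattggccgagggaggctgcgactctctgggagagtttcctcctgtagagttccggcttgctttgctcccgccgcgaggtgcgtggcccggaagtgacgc
Dhx33, chr11:71004433-71004532: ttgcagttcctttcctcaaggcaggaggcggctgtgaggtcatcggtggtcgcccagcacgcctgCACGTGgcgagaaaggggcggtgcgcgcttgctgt
All 3 stretches were rich in G and C, at 66%, 65% and 65%. The E-box, which reads the same on both strands, was searched in windows from 250 bases before to 50 after the start, which the table holds for 47 of the 53 members by symbol. It occurred in 1 of 16 nucleolar members (6.25%), in 6 of 31 other members (19.4%) and in 8.91% of 17492 protein-coding genes. Its absence from a window says only that these letters are not there.

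The spliceosomal helicases stood closer to their DMSO levels. Of 10 members 8 were lower and 2 higher, with a median log2 fold change of −0.19 and a range from −0.39 to 0.03. At an unadjusted p under 0.05, 2 of the 10 were lower, Dhx15 and Ddx46, where 9.97% of all tested genes were. Still, both HU-308 libraries lay below both DMSO libraries for 7 of the 10 (70%), against 25.4% of all tested genes, and above for 0. Dhx15, which releases the intron lariat and also acts in ribosome assembly, had 281 and 246 CPM with HU-308, against 375 and 318 CPM with DMSO (−0.39 ± 0.15, edgeR adjusted p = 0.253). Ddx46, which acts as the branch site is selected, had 204 and 196 CPM with HU-308, against 254 and 266 CPM with DMSO (−0.38 ± 0.13, edgeR adjusted p = 0.207). Both genes had all HU-308 values below all DMSO values. The spliceosome and export helicase Ddx39b (UAP56) had 293 and 287 CPM with HU-308, against 297 and 273 CPM with DMSO. Its groups overlapped, and the 95% interval of its log2 fold change ran from −0.29 to 0.35. With libraries scaled by size only, 6 of the 10 were lower and the median of this group was −0.071, while that of all genes, shifted by 0.12, was 0.14.

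The broad-acting members Ddx5, Ddx17, Dhx9, Ddx1 and Ddx20 had a median log2 fold change of −0.27, and 0 of the 5 had an unadjusted p under 0.05. For 3 of the 5 both HU-308 libraries lay below both DMSO libraries, against 25.4% of all tested genes, and for 0 above. Ddx5 had 1287 and 1336 CPM with HU-308, against 1408 and 1535 CPM with DMSO (−0.17 ± 0.14), and 13.3% of its 50-base stretches also occur in transcripts of Gm12183. Ddx17 had 970 and 884 CPM with HU-308, against 890 and 986 CPM with DMSO. The groups overlapped for Ddx17, with a 95% interval from −0.37 to 0.34. Ddx1, a member of the tRNA ligase complex, had 112 and 89.1 CPM with HU-308, against 156 and 114 CPM with DMSO (−0.43 ± 0.21, edgeR adjusted p = 0.33). Ddx20 (Gemin3), a subunit of the SMN complex that assembles spliceosomal RNA-protein particles, had 44.3 and 40.4 CPM with HU-308, against 54.1 and 49.6 CPM with DMSO (−0.29 ± 0.14, edgeR adjusted p = 0.335).

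Among the helicases of mRNA export, translation and turnover, Ddx3x differed most. Of the 10 genes of this group, 9 were lower and 1 higher with HU-308, with a median log2 fold change of −0.31, and 4 were lower at an unadjusted p under 0.05 (Ddx3x, Ddx19b, Dhx29 and Ddx6), where 9.97% of all tested genes were. With libraries scaled by size only, 7 of the 10 were lower, as Ddx39 and Dhx34 turned positive. Ddx3x, which helps translation start on structured messages, had 464 and 430 CPM with HU-308, against 773 and 679 CPM with DMSO. The groups lay well apart, with HU-308 at 61.5% of DMSO (−0.70 ± 0.14, edgeR adjusted p = 0.105, DESeq2 adjusted p = 0.0154). It was the single member outside the nucleolar group that DESeq2 called.

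Ddx3y, its counterpart on the Y chromosome, was read in every library, at 123 and 142 CPM with HU-308 against 148 and 178 CPM with DMSO (−0.30 ± 0.16, edgeR adjusted p = 0.369). The pair shares little sequence at this length, as 0.0369% of the 50-base stretches of Ddx3x also occur in Ddx3y. In FPKM, Ddx3x exceeded Ddx3y 3.71 and 2.99 times with HU-308, against 5.15 and 3.76 times with DMSO. All 4 ratios were above 1, and the lowest DMSO ratio lay only just above the highest HU-308 ratio.

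The nuclear pore helicase gene Ddx19b had 59.8 and 82.2 CPM with HU-308, against 108 and 112 CPM with DMSO (−0.64 ± 0.19, edgeR adjusted p = 0.17). Its neighbour Ddx19a, 5387 bases away on chromosome 8, had 158 and 147 CPM with HU-308, against 179 and 157 CPM with DMSO (−0.14 ± 0.14). Only Ddx19b had groups that did not overlap. These paralogs share sequence, with 12.4% of the 50-base stretches of Ddx19b found in Ddx19a and 28.1% of those of Ddx19a found in Ddx19b, so the split of reads between them is uncertain. Dhx29, a scanning factor of translation initiation, stood at 70.7% of its DMSO level (edgeR adjusted p = 0.194). Ddx6, the P-body helicase that holds messages silent and promotes decapping, had 457 and 467 CPM with HU-308, against 574 and 592 CPM with DMSO (−0.34 ± 0.13, edgeR adjusted p = 0.247). Replicates of Ddx6 lay close together and the groups apart. Ddx25, a testis helicase, was the gene of this group with a positive log2 fold change, at 10 and 18 reads with HU-308 against 8 and 17 with DMSO. That sign turned when HU-308 replicate 2 (−0.17) or DMSO replicate 1 (−0.084) was left out. The export helicase gene Ddx39, the relative of Ddx39b, had 142 and 112 CPM with HU-308, against 161 and 111 CPM with DMSO, and 17.4% of its exon bases are shared with Adgre5 on the opposite strand. The log2 fold change of Ddx39 was −0.10 with all libraries, 0.060 once HU-308 replicate 2 was left out, and 0.17 once DMSO replicate 1 was.

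**Figure D4:**
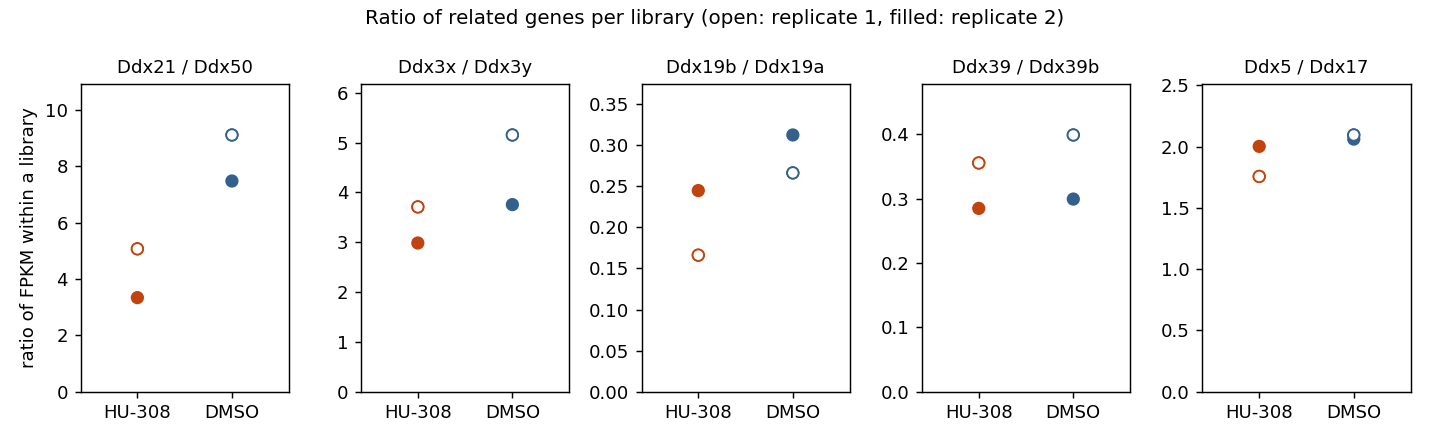
Ratio of FPKM between related genes within each library (axes from 0), with HU-308 left in orange and DMSO right in blue (open, replicate 1; filled, replicate 2). Ddx21 over Ddx50 is 5.07 and 3.34 with HU-308 against 9.12 and 7.48 with DMSO, whereas Ddx39 over Ddx39b overlaps between the groups.

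The 3 members placed under antiviral RNA sensing all had positive log2 fold changes, with a median of 0.38. For 0 of them was the unadjusted p under 0.05. Ifih1, which has no Ddx or Dhx symbol and is listed with the RIG-I pathway, had −0.036 ± 0.20, and its groups overlapped. Dhx58 (LGP2), a regulator of RIG-I-like sensing, had 8.44 and 9.60 CPM with HU-308, against 5.77 and 8.07 CPM with DMSO (0.38 ± 0.26, edgeR adjusted p = 0.478). Ddx60, an interferon-induced helicase, had 42 and 78 reads with HU-308 and 35 and 62 reads with DMSO, or 2.49 and 4.62 CPM against 2.02 and 3.17 CPM (0.45 ± 0.44). Its groups overlapped, and without HU-308 replicate 2 its log2 fold change was −0.059. Ddx58, which encodes RIG-I itself, differed more within each group than between groups, at 63.7 and 89.7 CPM with HU-308 against 61.7 and 84.6 CPM with DMSO. With all libraries its log2 fold change was 0.07, which turned to −0.20 once HU-308 replicate 2 was left out and to −0.16 once DMSO replicate 1 was.

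The remaining tested members overlapped between the groups, except Dhx30 (lower with HU-308) and Ddx28 (higher). The mitochondrial helicase gene Dhx30 had 82.0 and 76.6 CPM with HU-308, against 93.5 and 85.3 CPM with DMSO (−0.17 ± 0.14), and Ddx28, which acts in mitochondrial ribosome assembly, had 16.5 and 17.0 CPM with HU-308, against 16.1 and 14.2 CPM with DMSO (0.14 ± 0.18). Ddx28 shares 3.18% of its exon bases with Dus2 on the opposite strand. The cohesion DNA helicase gene Ddx11 had 59.5 and 49.1 CPM with HU-308, against 49.8 and 39.1 CPM with DMSO (0.29 ± 0.19, edgeR adjusted p = 0.449), and Dhx32 had 35.8 and 28.4 CPM with HU-308, against 30.5 and 23.1 CPM with DMSO (0.26 ± 0.21). For both genes replicate 1 exceeded replicate 2 in each group, and the groups overlapped. Ddx59, a low transcript at 8.55 and 8.77 CPM with HU-308 against 8.60 and 8.37 CPM with DMSO, had a log2 fold change of 0.03 ± 0.21. The germline helicase gene Ddx43 had 15 and 31 reads with HU-308, against 16 and 21 with DMSO, too few to place its log2 fold change of 0.45 within ± 0.51.

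Genes that work with these helicases were listed by complex, and none of them passed the adjusted threshold in edgeR. For the counts at an unadjusted p below, 9.97% of all tested genes were lower and 8.79% higher. Of 9 tested DEAD box and related helicases with other names, 3 were lower at an unadjusted p under 0.05 and 0 higher. Eif4a1, the main eIF4A gene, which unwinds messages for the ribosome, averaged 423 ± 37.4 CPM with HU-308 and 754 ± 31.5 CPM with DMSO (−0.83 ± 0.14, edgeR adjusted p = 0.0835, DESeq2 adjusted p = 0.00181). Its relatives Eif4a2 and Eif4a3, a translation factor and an exon junction core subunit, had log2 fold changes of −0.24 and −0.11 (edgeR adjusted p = 0.382 and 0.669). Skiv2l2, the helicase of the nuclear exosome, had a log2 fold change of −0.46 ± 0.14. Of 7 genes listed with eIF4A, 3 were lower and 1 higher at that p. The gene that was higher was Pdcd4, whose protein binds eIF4A and inhibits it, at 160 ± 43.6 CPM with HU-308 and 45.8 ± 10.3 CPM with DMSO (1.80 ± 0.26, edgeR adjusted p = 0.0674, DESeq2 adjusted p = 3.38e-09). Eif4g2 averaged 1187 ± 42.2 CPM with HU-308 and 1773 ± 15.7 CPM with DMSO (−0.58 ± 0.14, edgeR adjusted p = 0.131, DESeq2 adjusted p = 0.0479).

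Of 16 G-patch proteins, the family that switches on DEAH box helicases, 3 (18.8%) were lower at an unadjusted p under 0.05, beside 9.97% of all tested genes, and 0 higher. Gpatch4 averaged 10.9 ± 1.07 CPM with HU-308 and 28.8 ± 3.91 CPM with DMSO (−1.40 ± 0.20, edgeR adjusted p = 0.0664, DESeq2 adjusted p = 5.85e-05). Nkrf averaged 10.6 ± 3.88 CPM with HU-308 and 26.5 ± 6.39 CPM with DMSO (−1.32 ± 0.32, edgeR adjusted p = 0.131, DESeq2 adjusted p = 0.00306). The median of the G-patch list was −0.12, so these genes stood well below most of it. At the same p, 2 of 7 SMN complex genes were lower, Strap (−0.68 ± 0.19) and Gemin5 (−1.03 ± 0.29). Their DESeq2 adjusted p was 0.0585 and 0.0110. Also lower was 1 of 5 tRNA ligase complex genes, Fam98a (−0.50 ± 0.15), where Fam98b came next (−0.32 ± 0.14). Of 10 Ddx6 partners 1 was lower, close to the share of all tested genes, namely Dcp1a (−0.38 ± 0.13), followed by Dcp2 (−0.28 ± 0.13). Of 11 exon junction and export genes 2 were lower, Thoc1 (−0.50 ± 0.16) and Thoc2 (−0.35 ± 0.13). Of 8 RIG-I pathway genes 0 were lower and 1 was higher, Irf7, at 12.8 ± 3.04 CPM with HU-308 and 5.73 ± 3.37 CPM with DMSO (1.15 ± 0.44, edgeR adjusted p = 0.249), and Trim25 had a log2 fold change of −0.30 ± 0.14.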

How the data were processed

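Processed values of 4 libraries, 2 with HU-308 and 2 with DMSO, were used. Per the labels, TRIzol was used for the RNA and a SMARTER kit for the mRNA libraries. Tools listed in the submitters' processing notes, with no role given, are RSEM 1.3.1, Bowtie2 2.3.4.3 and DESeq2 1.4.5, on mm10 (GRCm38); annotation and strand setting are not given in the sources used here. The deposited read counts per gene are whole and unscaled. The authors also deposited FPKM and the gene length used for it. The deposited signal columns, the authors' group means of scaled counts, were not used. The deposited log2 fold change (HU-308 over DMSO) and p-value columns are the authors'.

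The test was edgeR 4.0.16 under R 4.3.3 over all genes (filterByExpr, minimum count 10, minimum total 15; TMM; quasi-likelihood F test, 2 residual degrees of freedom, Benjamini-Hochberg at 0.05), as unpaired samples. The SE is the absolute log2 fold change over the square root of F. Depth of 16145298 to 20479254 counts limits the rarest members. Replicate libraries were not copies of one another: their chi-square over its degrees of freedom was 18.3 for HU-308 and 26.8 for DMSO. The fits were tested on simulated counts. Named members are the 10 with the lowest p, the 6 with the highest FPKM, and the 2 largest changes per role; partners are the 2 with the lowest p in each list; other members were added to complete groups or pairs. Members, roles and lists were chosen with earlier results of these data known. Alternatives were RLE and library-size scaling, other filters, DESeq2 1.42.0, limma-voom and limma 3.58.1 on log2(FPKM + 1) and log2(FPKM + 0.1), a replicate block and each library left out. Shared 50-base stretches and exon overlaps come from GENCODE mouse release 21, where 52 of 53 members have identical coordinates. Plots used matplotlib 3.10.9 (Python 3.11.15).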

Additional observations from a re-analysis of the deposited data

How the results depend on the processing

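The nucleolar median lay between −0.77 and −0.53 over the alternatives run, and all 16 nucleolar members were lower in 10 of 14 settings, the exceptions being library size only (14 of 16), no low-count filter, and the fits without HU-308 replicate 2 or DMSO replicate 1 (15 of 16 each). Lower members called at the adjusted threshold numbered 4 with no low-count filter, 8 with DESeq2 and 0 to 3 with a library left out. All genes called (lower, then higher) were 371 and 190 with no low-count filter, 485 and 246 with DESeq2, 0 and 0 with limma on FPKM at either pseudocount, 27 to 244 and 10 to 93 with a library left out, 12 and 8 with library size only, and 20 and 8 with at least 1 CPM in at least 2 libraries. Library size only shifted the median of all genes by 0.12, to 0.14, and with it those of the family (−0.081), spliceosome (−0.071), export and translation (−0.19), mitochondrial (0.10) and less defined groups (0.15), and Ddx17 (0.10); the shift is common to all genes by construction. With log2(FPKM + 1) the antiviral median was 0.11 and that of all genes 0.010. With a library left out, members lower at an unadjusted p under 0.05 numbered 9 to 14, and medians ran from −0.059 to 0.64 (antiviral), −0.032 to 0.10 (less defined), −0.26 to −0.17 (spliceosome) and −0.00054 to 0.026 (all genes). In these fits 13 members changed sign: Ddx60 (−0.059 to 0.83) and Ddx43 (−0.16 to 0.88), negative without HU-308 replicate 2, Ddx39b (−0.030 to 0.071), negative without DMSO replicate 2, Ddx17 (−0.11 to 0.061), positive with the second library of either group left out, Ddx25 (−0.17 to 0.84), Ddx39 (−0.34 to 0.17), Ddx52 (−0.088 to 0.076), Ddx58 (−0.20 to 0.31), Dhx16, Dhx34, Dhx35, Dhx40 and Dhx57. None of the 13 had an unadjusted p under 0.05 with all libraries; the cause was not tested.

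With the replicate number as a block, 24 of 52 tested members were called lower and 1 higher. At an unadjusted p under 0.05 these counts were 28 and 2. Of all 14316 tested genes, 2445 were called lower and 2394 higher. The block leaves fewer residual degrees of freedom than the unpaired fit. In that fit 20.8% of all tested genes were lower at an unadjusted p under 0.05. Deviations of libraries with the same number correlated at 0.465 over all tested genes and 0.822 over the members, but no label says that a number marks a shared culture or day, so the block is not used for any result above.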

Other observations

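The 2 libraries of a group also differed from one another in the nucleolar members. Replicate 1 stood above replicate 2 in both groups for 11 of the 16 nucleolar members, among them Ddx21, Ddx18, Dhx33 and Ddx31, against 13 of the 36 other tested members and 35.0% of all tested genes. Ddx24, Ddx54, Ddx50, Ddx47 and Ddx55 were the nucleolar members without this pattern. The summed CPM of the nucleolar members was 1133 and 1031 with HU-308 and 1776 and 1645 with DMSO, so the gap between groups was larger than the gap between the libraries of either group. The labels do not say what the replicate numbers stand for.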
